A study of Rattus norvegicus with 6 samples.

Results

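Cells take up, exchange and store amino acids through membrane carriers of the solute carrier (Slc) families, and the expression of these carriers was read in adult rat hippocampal neural stem cells (NSCs) after knockdown of *Derl1*. The genes were chosen by name: every row whose symbol begins with Slc3a, Slc7a, Slc36a, Slc38a or Slc43a and a number. This gave 34 of the 17315 rows. One of them, *Slc7a6os*, is the gene on the strand opposite to *Slc7a6* and encodes no carrier, so 33 transporter genes were described and *Slc7a6os* is given apart. The 33 genes comprise 2 of the Slc3a, 15 of the Slc7a, 4 of the Slc36a, 9 of the Slc38a and 3 of the Slc43a family. A mean of at least 1 TPM over the 6 samples was reached by 20 of them, 7 lay below it and 6 were listed at 0 in every sample.

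The Slc3a proteins are heavy chains that carry a light chain of the Slc7a family to the cell surface, where the pair exchanges one amino acid for another. Other Slc7a proteins take up arginine and lysine on their own. Carriers of the Slc38a family bring in glutamine and other small neutral amino acids together with sodium, and some members of the Slc38a and Slc36a families sit on the lysosome and report its amino acids to the kinase mTORC1. The Slc43a carriers let large neutral amino acids pass without exchange.

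The NSCs are a line cloned from the adult rat hippocampus. They were reverse transfected with siRNA: siControl NSCs received a control duplex and siDerl1 NSCs one that targets *Derl1*, which encodes Derlin-1, a membrane protein of the endoplasmic reticulum that takes part in the degradation of misfolded proteins. The cells of all 6 samples, 3 per group and numbered 1 to 3 in each, spent 2 days in proliferation medium and then 2 days with 50 ng/mL of BMP4 next to 10 ng/mL of bFGF, a treatment that brings the cells out of the cell cycle. The knockdown rests on 1 duplex and the line is 1 clone, and every sample had BMP4, so no value here shows an effect of BMP4 itself. Nothing in the labels says whether the 3 samples of a group came from separate cultures, and p-values may then measure technical spread.

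Expression is in TPM, the share of a transcript among 1000000 after correction for its length, so that levels of different genes can be set side by side. Because TPM keeps no read numbers, depth is unknown, and 11641 to 11808 rows per sample were above 0. *Derl1* itself lay between 122 and 132 TPM in siControl samples, whereas siDerl1 samples 1, 2 and 3 held 44.9, 70.8 and 74.0 TPM (two-sided p = 0.1 by an exact permutation test, which cannot go lower with 3 samples a group). The 8 neural stem cell markers, among them *Sox2* and *Nes*, summed to between 4097 and 6009 TPM, of which *Vim* held 3008 to 5044 TPM, and the 8 markers of the oligodendrocyte lineage to between 1268 and 1733 TPM, although *Mog* was listed at 0 and *Cspg4* stayed at or below 0.34 TPM. The 6 astrocyte markers summed to between 568 and 827 TPM: *S100b* lay at 445 to 708, *Slc1a3* at 47.9 to 83.5, *Gfap* at 27.7 to 66.3 and *Gja1* at 3.70 to 7.26 TPM, while *Aqp4* and *Aldh1l1* stayed under 1 TPM. The 6 neuronal markers summed to 152 to 176 TPM in siControl and 145 to 171 TPM in siDerl1 NSCs. All 7 endothelial markers stayed under 1 TPM in every sample, with *Cldn5*, *Cdh5* and *Emcn* at 0. Of the 7 microglial markers, 5 stayed under 1 TPM, while *P2ry12* was at 3.48 to 5.41 TPM and *Cd68* at 1.02 to 4.93 TPM. In both groups the samples numbered 1 stood apart from numbers 2 and 3: the first principal component, with 55.7% of the variance, set them apart, and the second, with 16.2%, parted the siRNA groups. The genes on which the results turn are therefore given by sample number as well as by group.

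The transporter transcripts of these NSCs came mostly from 3 genes. *Slc38a2*, which encodes the sodium-coupled carrier SNAT2 for alanine, glutamine and other small neutral amino acids, had a mean of 279 TPM over the 6 samples, *Slc3a2*, the heavy chain also known as CD98 or 4F2hc, a mean of 226 TPM, and *Slc7a5*, the light chain LAT1 for leucine and other large neutral amino acids, a mean of 177 TPM. By mean TPM they ranked 548, 715 and 954 among all rows. Together they held between 71.6% and 78.1% of the summed TPM of the 33 genes, a sum that lay between 829 and 982 TPM per sample. Below them, 3 genes had a mean between 20 and 100 TPM (*Slc7a1*, *Slc7a6* and *Slc38a1*), 9 between 5 and 20 TPM and 5 between 1 and 5 TPM.

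**Figure D1:**
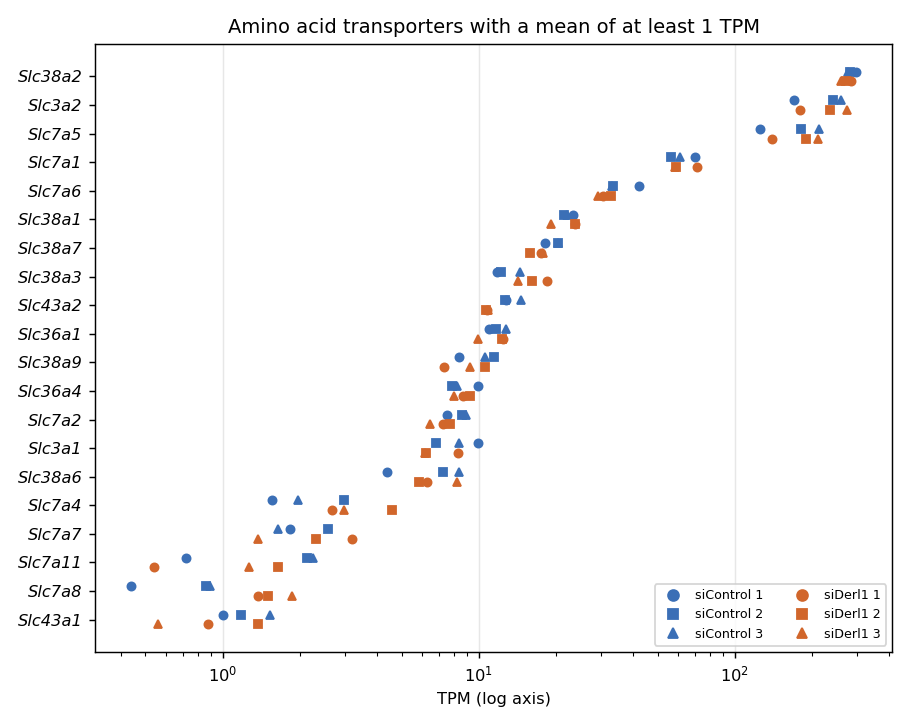
TPM on a log axis of the 20 transporter genes with a mean of at least 1 TPM, in order of their mean. Each symbol is 1 sample, blue for siControl and orange for siDerl1, with a circle, square or triangle for samples 1, 2 and 3; *Slc38a2*, *Slc3a2* and *Slc7a5* lie above 100 TPM in every sample, and in the latter pair the circles of both groups lie left of the other 4 symbols.

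Derlin-1 knockdown left the transporter set without a call. None of the 20 genes tested had an adjusted p under 0.05 (limma on log2(TPM + 1), Benjamini-Hochberg over all 10331 genes tested, smallest adjusted p among the transporters 0.721), and the same held for all genes (0 of 10331, or 0.0%). With the sample number as a block 57 genes (0.552%) had an adjusted p under 0.05, *Derl1* among them (adjusted p = 0.00884 from limma) and 0 of the 20 transporters, and with the block and no intensity trend 0 genes did. At an unadjusted p under 0.05 there were 2 transporters, *Slc7a8* higher and *Slc43a2* lower in siDerl1 NSCs, beside 6.7% of all genes, 2.67% higher and 4.03% lower. *Slc7a8* entered the test only through its siDerl1 values, the group in which it was higher, so its p is no support for a difference. With the libraries scaled by the median of ratios the 2 became 3, of which 2 were higher, and 10 of the 20 genes lay above 0. All genes shifted with this scaling too: 49.6% lay above 0 in place of 45.2%, and of the 682 with an unadjusted p under 0.05, 48.8% were higher in place of 39.9% of 692. The median difference of the 20 genes was −0.02 on the log2 scale, against −0.02 for all genes tested, and 8 of the 20 genes lay above 0. The study's own limits, a fold change above 1.5 or below 0.8 with an unadjusted p under 0.05, were met by 0 of the 20 on this scale, beside 1.91% of all genes, and by 1 of the 20 with median-of-ratios scaling or a pseudocount of 0.1.

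The groups did not overlap in 1 gene that was higher, *Slc7a8*, and in 3 that were lower, *Slc7a6*, *Slc38a7* and *Slc43a2*. Among all genes tested, 5.09% were higher and 8.52% lower without overlap, 13.6% in all, so the transporters' 1 and 3 of 20 stood close to that background. All 3 pairs of samples with the same number differed upwards in 2 of the 20 genes (*Slc7a8* and *Slc7a4*) and downwards in 8, beside 15.8% and 22.1% of all genes. The count at an unadjusted p under 0.05 rested on single libraries: it was 0 without siControl 2, siDerl1 1 or siDerl1 2, and 1 without siControl 1, siControl 3 or siDerl1 3. With samples 2 and 3 alone, a comparison added after the data had been seen, it was 0, and the median of the 20 genes was −0.12, the same value as without siControl 1.

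**Figure D2:**
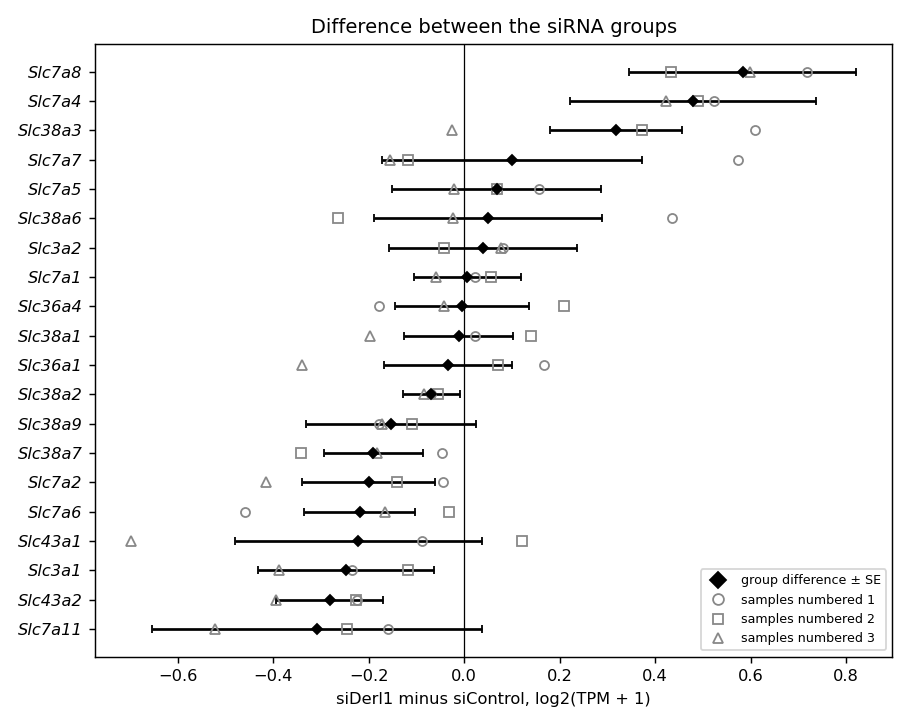
Difference between siDerl1 and siControl NSCs on the log2(TPM + 1) scale for the 20 transporter genes tested, in order of size. Black diamonds are the group differences with their standard errors from limma, and open symbols are the differences between samples of the same number; *Slc7a8*, at the top, lies at 0.58 and *Slc7a11*, at the bottom, at −0.31, and in *Slc38a3* and *Slc7a7* the circles of samples numbered 1 lie far to the right of the triangles.

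Among the light chains of *Slc3a2*, *Slc7a8* (NM_053442) encodes LAT2, a further carrier of large neutral amino acids. It passed the filter of 1 TPM only through siDerl1, the group in which it was higher, and its values are given as a description. It was at 0.44, 0.86 and 0.89 TPM in siControl samples 1, 2 and 3 and at 1.37, 1.51 and 1.86 TPM in siDerl1 samples 1, 2 and 3. Every siDerl1 sample lay above every siControl sample. The means were 0.730 ± 0.252 and 1.58 ± 0.252 TPM (SD, n = 3 each), a ratio of 2.16, and the log2 difference was 0.58 (standard error 0.24, adjusted p = 0.733 from limma). On the log2(TPM + 1) scale, which understates changes of low genes, this is a fold of 1.498, just below the study's limit. With a pseudocount of 0.1 in place of 1 the log2 difference was 1.06, and the adjusted p was 0.744. With 1 sample left out in turn it lay between 0.46 and 0.65. Markers of other cell types also lay apart between the groups. The pericyte gene *Pdgfrb* was low, with 0.26 to 0.47 TPM in siControl and 0.97 to 1.44 TPM in siDerl1 NSCs, while *Rgs5* and *Kcnj8* were at 0 and *Abcc9* stayed at or below 0.11 TPM. The summed TPM of the 4 pericyte markers was 0.29 to 0.47 in siControl and 1.08 to 1.44 in siDerl1 NSCs. Of the neuronal markers, *Dcx* was at 8.83 to 10.95 TPM in siControl and 6.38 to 7.63 TPM in siDerl1 NSCs, and *Syt1* at 47.2 to 53.6 and 33.2 to 45.7 TPM, both lower without overlap, whereas *Tubb3* was higher without overlap, at 58.8 to 74.9 and 76.3 to 83.2 TPM. The astrocyte marker *Gfap* was at 47.0, 27.7 and 28.9 TPM in siControl and 66.3, 47.5 and 45.3 TPM in siDerl1 samples 1, 2 and 3, higher in each pair but with overlap. *Slc1a3*, of the same list, was lower in each pair, at 52.1, 83.0 and 83.5 TPM and at 47.9, 79.6 and 69.7 TPM, and *Gja1* was higher in each pair, at 3.70, 4.85 and 6.20 TPM and at 5.32, 6.84 and 7.26 TPM. The stem cell marker *Nes* was lower without overlap, at 113 to 137 TPM in siControl and 99.4 to 111 TPM in siDerl1 NSCs. The part of such cells in the *Slc7a8* values was not tested, and in such bulk samples fewer cells of a type cannot be told apart from less RNA per cell.

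*Slc7a5* was far more abundant than *Slc7a8* and showed no shared direction. It was at 126, 182 and 214 TPM in siControl samples 1, 2 and 3 and at 140.1, 190.4 and 211 TPM in siDerl1 samples 1, 2 and 3. The groups overlapped over almost their whole range, and samples of the same number were closer to each other than to the rest of their group. The groups differed by 0.07 on the log2 scale (standard error 0.22, limma adjusted p = 0.968), and the difference was 0.16, 0.07 and −0.02 in the pairs numbered 1, 2 and 3. Without siControl 1 it was −0.15 and without siDerl1 3 it was −0.05, so its sign depended on these libraries.

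The heavy chain *Slc3a2* (NM_001271089, NM_019283) behaved as its main light chain did. It was at 170.1, 241 and 259 TPM in siControl samples 1, 2 and 3 and at 180.0, 234 and 273 TPM in siDerl1 samples 1, 2 and 3. The groups differed by 0.04 on the log2 scale (standard error 0.20, limma adjusted p = 0.982), and without siControl 1 or siDerl1 3 the difference was −0.15 and −0.10. Within each sample the heavy and light chains were close in level. The 6 light chains that pair with *Slc3a2* (*Slc7a5*, *Slc7a6*, *Slc7a7*, *Slc7a8*, *Slc7a10* and *Slc7a11*) summed to between 0.897 and 1.01 of the *Slc3a2* TPM in the 6 samples. *Slc7a5* alone stood at 0.738 to 0.827 of *Slc3a2*, and it made up between 73.4% and 86.1% of the light chain sum. The lowest of these shares belonged to siControl 1, in which *Slc7a5* was lowest and *Slc7a6* highest.

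*Slc7a6*, the light chain y+LAT2, which exchanges arginine for glutamine and leucine, was the next most abundant light chain. It was at 42.3, 33.6 and 33.1 TPM in siControl samples 1, 2 and 3 and at 30.5, 32.8 and 29.4 TPM in siDerl1 samples 1, 2 and 3. All siDerl1 values lay below all siControl values, but the highest siDerl1 and the lowest siControl value were almost equal. The log2 difference was −0.22 (standard error 0.12, limma adjusted p = 0.769), and siControl 1 set much of its size: without it the difference was −0.11. *Slc7a6os*, the gene on the opposite strand, was at 50.3 to 63.4 TPM in siControl and at 49.8 to 53.2 TPM in siDerl1 NSCs, with its highest value also in siControl 1. The libraries were strand-specific, but whether strand was used in the quantification is not given in the sources used here, and reads of these genes may not be told apart where they overlap.

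The remaining light chains were near or below the filter. *Slc7a7*, or y+LAT1, was at 1.37 to 3.21 TPM over the 6 samples, with a log2 difference of 0.10 (adjusted p = 0.963 from limma) that came from pair 1 (0.57 in pair 1, −0.12 and −0.16 in pairs 2 and 3). *Slc7a11*, the xCT chain that imports cystine for glutathione synthesis in exchange for glutamate, was at 0.72, 2.14 and 2.26 TPM in siControl and at 0.54, 1.65 and 1.27 TPM in siDerl1 samples 1, 2 and 3. Each pair was lower with siDerl1, while the groups overlapped (log2 difference −0.31, standard error 0.35, adjusted p = 0.912 from limma). That difference was −0.61 without siControl 1 and −0.085 without siDerl1 1. *Slc7a10*, a carrier of small neutral amino acids such as serine and glycine, stayed at or below 0.27 TPM. The other heavy chain, *Slc3a1*, was at 6.19 to 9.96 TPM, although its usual partner *Slc7a9* and the related *Slc7a13* were listed at 0 in every sample.

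**Figure D3:**
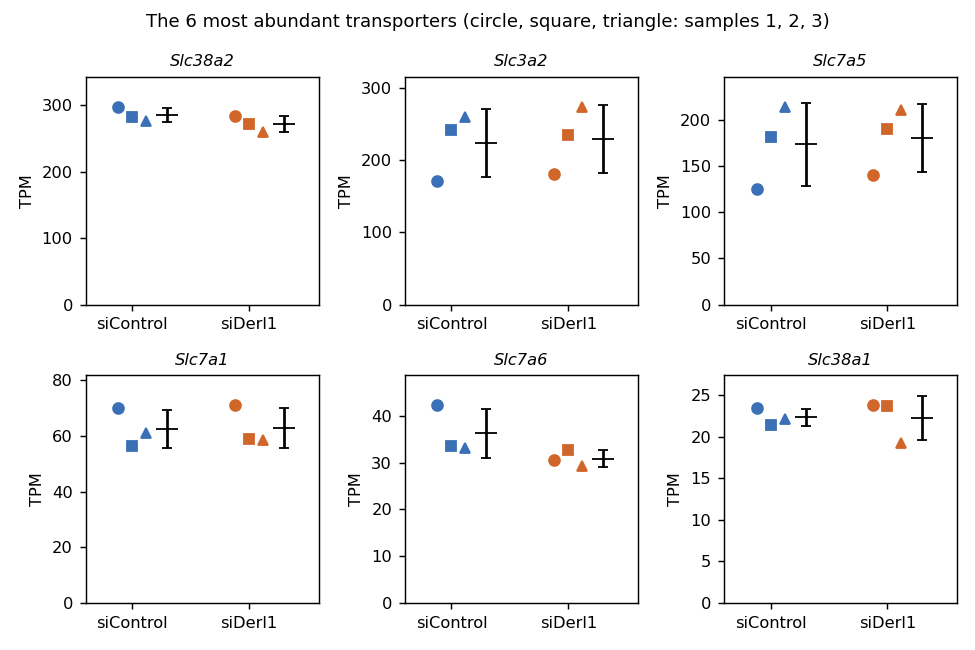
TPM of the 6 most abundant transporter genes by siRNA group, on linear axes that start at 0. Circles, squares and triangles are samples 1, 2 and 3, and the black bars are the group mean ± SD; the means differ little between the groups, and in *Slc3a2* and *Slc7a5* the circle lies lowest in both groups.

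The cationic amino acid carriers were led by *Slc7a1*, or CAT-1, which takes up arginine and lysine. It was at 70.0, 56.6 and 61.2 TPM in siControl samples 1, 2 and 3 and at 71.1, 58.9 and 58.7 TPM in siDerl1 samples 1, 2 and 3. Both samples numbered 1 were the highest, opposite to *Slc7a5*, and the siRNA groups differed by 0.01 on the log2 scale (standard error 0.11, adjusted p = 0.993 from limma). That sign turned in several fits, among them the one without siDerl1 1 (−0.08). *Slc7a2*, a related carrier, was lower with siDerl1 in all 3 pairs, at 7.52 to 8.96 TPM in siControl and 6.47 to 7.74 TPM in siDerl1 NSCs, with overlap (log2 difference −0.20, adjusted p = 0.828 from limma). *Slc7a3* stayed at or below 0.35 TPM. *Slc7a4*, a relative for which transport has been hard to show, went the other way in all 3 pairs, by 0.52, 0.49 and 0.42 on the log2 scale. It was at 1.56, 2.98 and 1.97 TPM in siControl and at 2.68, 4.59 and 2.98 TPM in siDerl1 samples 1, 2 and 3. Sample 2 was the highest in both groups, the groups overlapped, and the adjusted p from limma was 0.769.

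The promoter letters of the transporters were read for sites of factors known to act on this class of genes. RefSeq promoter windows of the rat assembly GRCr8 were found for 27 of the 33 genes, and the 250 bases before the gene start were searched on both strands. The composite site of C/EBP and ATF factors, through which amino acid shortage acts on many genes, was searched as TGATGNAA. It was found in 2 of the 27 genes, *Slc7a1* and *Slc38a1*, beside 3.4% of all 33469 windows. The E-box CACGTG, bound by MYC, TFEB and related factors, was found in 5 of the 27 genes, *Slc7a5* among them, beside 5.59% of all windows. These 3 stretches of 30 bases are shown because they belong to the abundant carriers above. Each is given 5′ to 3′ along the gene's strand, with the searched letters in capitals.
*Slc7a1*, chr12:11664447-11664476, plus strand: cggcgcgcggcTGATGAAAccggctcggat
*Slc38a1*, chr7:129681525-129681554, minus strand: gggggaaactcTGATGCAAccaaccagtcc
*Slc7a5*, chr19:66872574-66872603, minus strand: catcatacgctcCACGTGcttcaacagacc
A match is a run of letters, and no binding was measured. Of these genes, *Slc7a5* was lowest and *Slc7a1* highest in the samples numbered 1, while in *Slc38a1* these samples overlapped with the rest. They also overlapped in *Slc36a1*, *Slc38a7* and *Slc43a1*, the other tested genes with the CACGTG letters. A link between the letters and the sample number was not tested.

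Of the sodium-coupled Slc38a carriers at the cell surface, *Slc38a2* was steady. It was at 298, 283 and 276 TPM in siControl samples 1, 2 and 3 and at 284, 272 and 260.4 TPM in siDerl1 samples 1, 2 and 3. Each siDerl1 sample lay a little below the siControl sample of its number, by 0.07, 0.05 and 0.08 on the log2 scale, with groups that overlapped. The group difference was −0.07 (standard error 0.06, limma adjusted p = 0.875), the smallest standard error among the 20 genes. It was −0.039 without siControl 1 and −0.038 without siDerl1 3. *Slc38a1*, or SNAT1, which serves the same substrates, was at 23.4, 21.5 and 22.2 TPM in siControl and at 23.8, 23.7 and 19.2 TPM in siDerl1 samples 1, 2 and 3, a log2 difference of −0.01 (standard error 0.11, adjusted p = 0.989 from limma). The third carrier of this group, *Slc38a4*, was above 0 in both samples numbered 1, at 0.33 and 0.26 TPM, and listed at 0 in the other 4.

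The glutamine carriers of the same family that also exchange protons differed in level. *Slc38a3*, or SNAT3, was at 11.8, 12.2 and 14.5 TPM in siControl samples 1, 2 and 3 and at 18.5, 16.1 and 14.3 TPM in siDerl1 samples 1, 2 and 3. It was higher with siDerl1 in pairs 1 and 2, by 0.61 and 0.37 on the log2 scale, and not in pair 3, where the difference was −0.03. The group difference was 0.32 (standard error 0.14, unadjusted p = 0.0536 and adjusted p = 0.740 from limma), and with samples 2 and 3 alone it was 0.17. *Slc38a5*, or SNAT5, was close to 0. The siControl samples 1, 2 and 3 and siDerl1 2 were listed at 0, siDerl1 1 was at 0.14 TPM and siDerl1 3 at 1.03 TPM. Almost all of its signal thus lay in 1 library, and it did not reach the filter. *Slc38a8* stayed at or below 0.77 TPM. *Slc38a6* was at 4.40 to 8.38 TPM, with the lowest value in siControl 1, and its log2 difference of 0.05 turned to −0.19 without that sample (adjusted p = 0.981 and 0.823 from limma).

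Carriers known from the lysosome were detected throughout. *Slc38a7*, which lets glutamine and asparagine out of the lysosome, was at 18.2, 20.4 and 20.4 TPM in siControl and at 17.5, 15.9 and 17.8 TPM in siDerl1 samples 1, 2 and 3. All siDerl1 values were below all siControl values, and the log2 difference was −0.19 (standard error 0.10, adjusted p = 0.769 from limma). *Slc38a9*, a lysosomal arginine sensor upstream of mTORC1, was at 8.40 to 11.5 TPM in siControl and at 7.30 to 10.6 TPM in siDerl1 NSCs. Its lowest value in each group was that of sample 1, and its log2 difference was −0.15 (adjusted p = 0.922 from limma), −0.27 without siControl 1 and −0.023 without siDerl1 1. The Slc36a carriers *Slc36a1* (9.91 to 12.8 TPM) and *Slc36a4* (7.90 to 9.95 TPM) had log2 differences of −0.03 and −0.0042 (adjusted p = 0.974 and 0.998 from limma). The sign of both turned with single libraries. *Slc36a3* stayed at or below 0.23 TPM and *Slc36a2* was listed at 0.

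Among the carriers that work without exchange, *Slc43a2*, or LAT4, was lower in siDerl1 NSCs with little spread. It was at 12.7, 12.7 and 14.6 TPM in siControl samples 1, 2 and 3 and at 10.8, 10.7 and 10.9 TPM in siDerl1 samples 1, 2 and 3. The groups did not overlap, and the means were 13.4 ± 1.09 and 10.8 ± 0.0794 TPM (SD, n = 3 each). The log2 difference was −0.28 (standard error 0.11, unadjusted p = 0.0393 and adjusted p = 0.721 from limma), a fold of 0.822, and it lay between −0.31 and −0.22 with 1 sample left out in turn. *Slc43a1*, or LAT3, was at 0.56 to 1.53 TPM, and it passed the filter only through its siControl values (log2 difference −0.22, adjusted p = 0.924 from limma). With 1 sample left out the difference ran from −0.38 without siDerl1 2 to −0.077 without siDerl1 3. *Slc43a3*, known as a carrier of nucleobases rather than amino acids, was listed at 0. The other genes with no value above 0 were *Slc7a12* and *Slc7a15*, and *Slc7a14* reached 0.06 TPM in siControl 2 alone.

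**Figure D4:**
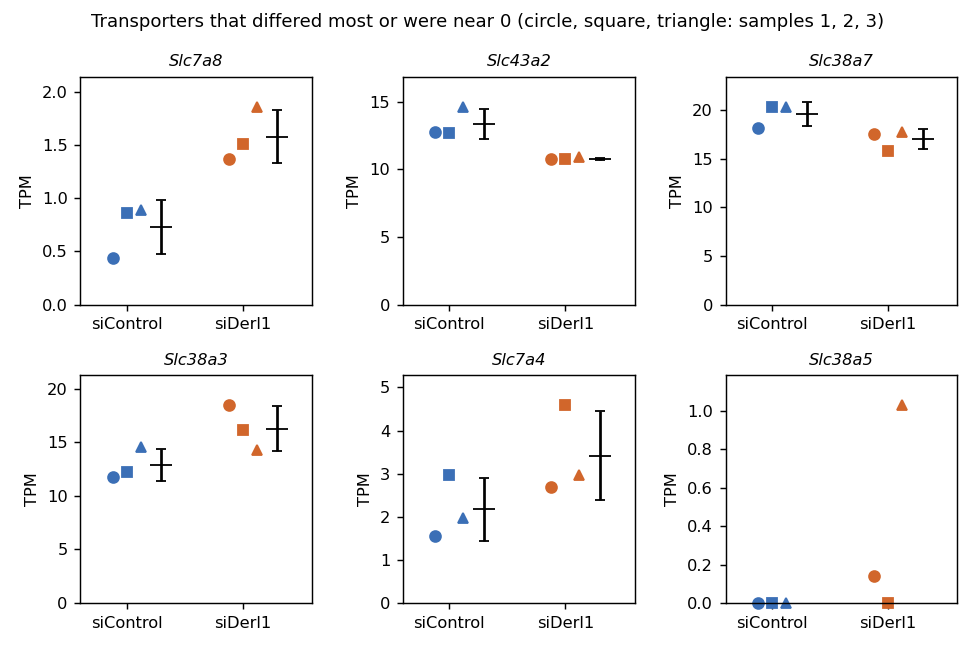
TPM of 6 less abundant transporter genes by siRNA group, on linear axes that start at 0. Circles, squares and triangles are samples 1, 2 and 3, and black bars are the mean ± SD, left out for *Slc38a5*; the groups do not overlap in *Slc7a8*, *Slc43a2* and *Slc38a7*, and *Slc38a5* is above 0 in 2 siDerl1 samples only.

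The sample number moved some of these genes more than the siRNA did. In a fit with group and number together, an F test of the number gave an adjusted p under 0.05 for 2 of the 20 transporters, beside 10.6% of all genes: *Slc3a2* (adjusted p = 0.000898 from limma) and *Slc7a5* (adjusted p = 0.000725 from limma). In both genes the samples numbered 1 lay below the other 4, which held with such a call for 5.47% of all genes. Cell type markers moved with the number as well: in the samples numbered 1 *Sox9* was at 7.5 and 9.42 TPM against 34.7 to 38.3 TPM in the other 4, *Vim* at 3008 and 3386 against 4644 to 5044 TPM, and *S100b* at 679 and 708 against 445 to 467 TPM. Members of the same lists went the other way. The stem cell marker *Fabp7* was at 196 and 220 TPM in the samples numbered 1 against 97 to 132 TPM in the other 4. The astrocyte marker *Slc1a3* was at 52.1 and 47.9 TPM against 69.7 to 83.5 TPM. The part of these markers in the values of *Slc3a2* and *Slc7a5* was not tested. For *Slc3a2* sample 1 was lower than the mean of samples 2 and 3 by 0.55 on the log2 scale in siControl and by 0.49 in siDerl1 NSCs, and for *Slc7a5* by 0.65 and 0.51. When the fit had no intensity trend, neither call held (adjusted p = 0.0653 and 0.0591 from limma), and the count over all genes then fell from 1092 to 252. It was 666 without siControl 3 and 608 without siDerl1 3, and with each of the 6 samples left out in turn both transporters had an adjusted p under 0.05.

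Both samples numbered 1 also lay below the other 4 in *Slc7a11* and *Slc38a9*, which gave 4 of the 20 genes, beside 17.0% of all genes. Both lay above the other 4 in *Slc38a2* and *Slc7a1*, 2 of the 20, beside 15.7%. *Slc7a11* had the largest difference on this axis, −0.90 in siControl and −0.67 in siDerl1 NSCs, at a level of 2.26 TPM or less. *Slc7a1* differed by 0.25 and 0.27, with an adjusted p of 0.0929 for the number from limma. The number is a label that both groups share, and what samples of the same number have in common was not given.

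**Figure D5:**
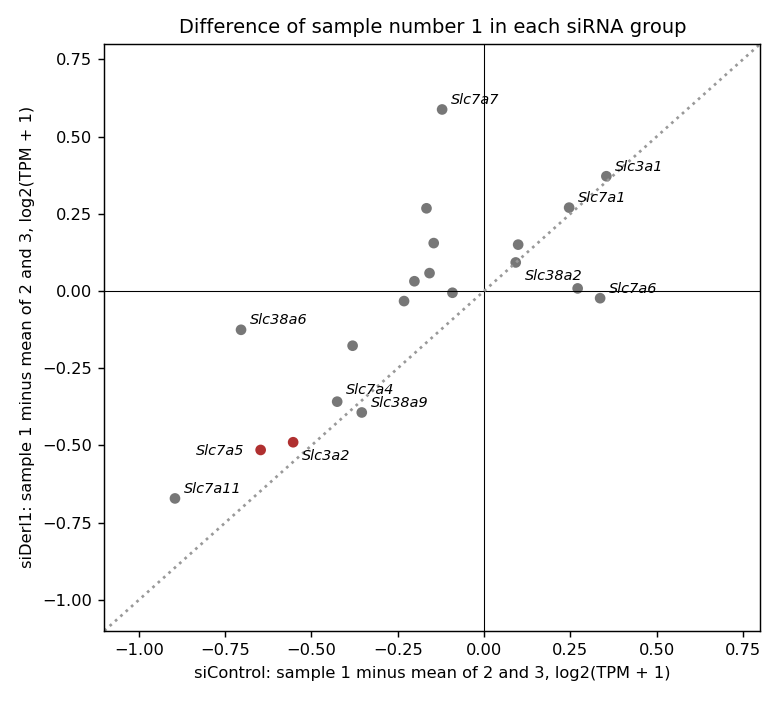
Sample 1 minus the mean of samples 2 and 3 on the log2(TPM + 1) scale, for siControl NSCs on the horizontal and siDerl1 NSCs on the vertical axis. Each point is 1 of the 20 transporter genes, red for an adjusted p under 0.05 in the F test of the sample number, and the dotted line marks equal differences; *Slc3a2*, *Slc7a5* and *Slc7a11* lie at the lower left, and *Slc3a1* and *Slc7a1* at the upper right.

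Amino acid carriers of other families were read from a separate list. Of its 30 genes in the tables, 16 were tested, and their median log2 difference between siDerl1 and siControl NSCs was 0.01. By limma 0 of the 16 passed after adjustment, and 3 had an unadjusted p under 0.05, all of them lower. Among all genes 4.03% were lower at this limit, and 6.7% met it in either direction. With the sample number as a block, 5 of the 16 had an unadjusted p under 0.05, 2 higher and 3 lower, beside 15.7% of all genes. *Slc6a6*, the taurine carrier, was at 38.8, 37.4 and 38.1 TPM in siControl and at 27.9, 29.6 and 25.0 TPM in siDerl1 samples 1, 2 and 3. The gap between the groups was wider than either group's own range (log2 difference −0.46, standard error 0.09, adjusted p = 0.642 from limma). *Slc15a4*, a lysosomal carrier of histidine and peptides, was at 52.4 to 53.2 TPM in siControl and at 44.3 to 49.4 TPM in siDerl1 NSCs. By the F test of the sample number, 4 of the 16 had an adjusted p under 0.05, beside 10.6% of all genes. In 3 of these 4 the samples numbered 1 were the lowest, beside 5.47% of all genes.

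Genes that read amino acid supply were counted in the same way. Of the 32 tested genes of mTORC1 and its amino acid sensors, 20 lay above 0 in the difference, with a median of 0.06. By limma none had a p under 0.05, adjusted or not, and with the block 2 had an unadjusted p under 0.05, 1 in each direction, beside 6.7% of all genes without and 15.7% with the block. The smallest p-values belonged to *Rragc* and *Lamtor2*, which help to bring mTORC1 to the lysosome, and to *Nprl2*, a subunit of the GATOR1 complex that switches the Rag GTPases off. Of the 39 tested genes of the amino acid response and of amino acid synthesis, 30 were higher, with a median of 0.11, beside −0.02 for all genes. Of these 39, 0 had an adjusted p under 0.05 by limma and 4 an unadjusted p under 0.05, all of them higher, beside 2.67% of all genes. With the block 14 of the 39 had an unadjusted p under 0.05, all higher, and 0 an adjusted one, beside 15.7% of all genes in either direction and 0.552%. The groups did not overlap in 7 genes that were higher and in 0 that were lower, beside 5.09% and 8.52% of all genes. All 3 pairs differed upwards in 19 of the 39 and downwards in 2, beside 15.8% and 22.1%. *Asns*, which makes asparagine, was at 88.1, 90.3 and 79.7 TPM in siControl and at 96.1, 110.7 and 102 TPM in siDerl1 samples 1, 2 and 3, without overlap (log2 difference 0.26, standard error 0.08, adjusted p = 0.704 from limma). *Ddit3* and *Cebpb*, transcription factors of the stress response, were the other genes with the smallest p-values, with log2 differences of 0.17 and 0.47. That of *Cebpb* was uneven, 0.07, 0.42 and 0.91 in pairs 1, 2 and 3. The sample number gave an adjusted p under 0.05 for 12 of the 39 genes, beside 10.6% of all genes.

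Genes of glutathione and of glutamate use stand next to the cystine carrier *Slc7a11*. Of 16 tested, 8 had a difference above 0, and the median was 0.01. By limma 0 had an adjusted and 1 an unadjusted p under 0.05, beside 6.7% of all genes. With the block 4 had an unadjusted p under 0.05, all higher. Among all genes 707 of 10331 were higher at this limit with the block, and 15.7% met it in either direction. The smallest p-values belonged to *Gpx1*, *Gpx4* and *Gls2*. *Gpx1*, a glutathione peroxidase, was at 91.2, 69.8 and 62.8 TPM in siControl and at 96.6, 96.9 and 95.2 TPM in siDerl1 samples 1, 2 and 3. Its groups did not overlap, but siControl 1 lay closer to the siDerl1 samples than to its own group (log2 difference 0.38, standard error 0.13, adjusted p = 0.704 from limma). The sample number gave an adjusted p under 0.05 for 5 of the 16 genes, and in 4 of the 5 the samples numbered 1 were the lowest, as in *Slc7a11*, beside 10.6% and 5.47% of all genes. *Hmox1*, which degrades heme, was one of these, named after its values were seen, at 57.6 and 70.0 TPM in the samples numbered 1 and between 109 and 135 TPM in the other 4.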

How the data were processed

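The authors made strand-specific poly(A) libraries from 0.5 ug of total RNA, sequenced them on an Illumina HiSeq X, and used Trimmomatic 0.39 for trimming, STAR 2.7.3a for alignment to rn6 and RSEM 1.3.2 for quantification, per the submitters' processing notes and the study's methods. The deposited values are TPM, rounded to 2 decimals, with 1000000 per sample. They used edgeR 3.28.1 on values not used here. TPM keeps no depth, so no counting error can be given. Reads shared by paralogs may be split between them by RSEM.

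Groups were compared by limma 3.58.1 under R 4.3.3. The fit took log2(TPM + 1) and a variance trend over intensity, in the 10331 rows with a mean of at least 1 TPM, and Benjamini-Hochberg adjustment over all of them. The sample number was tested by an F test with the group in the fit. The script was tested on simulated data. The numbers were checked as a pairing: deviations from the group means correlated at 0.70, 0.35 and 0.51 for numbers 1, 2 and 3 across genes. The labels number both groups alike, and the pairing rests on these correlations. It is mainly number 1 that stands apart, as on the first principal component. Outside the pairs, siControl 2 correlated with siDerl1 3 at 0.34 and siControl 3 with siDerl1 2 at 0.25, and number 1 with the others at −0.59 to −0.41. The deviations of a group sum to 0 in each gene, so positive values bring negative ones with them. The negative values thus add no support of their own. Between any 2 samples at most 0.232% of the tested rows were equal.

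The members, lists and tests were chosen with earlier results of these data known. Per-sample values are given for the 6 most abundant members, those with an unadjusted p under 0.05, groups without overlap or a call by number, *Slc3a2* and *Slc38a5*, and of each list the 3 genes with the smallest p are named, except 1 that is not reported here; others with per-sample values were added after their values were seen. Alternatives were a pseudocount of 0.1, no filter, a mean of at least 5 TPM, median-of-ratios scaling (factors 0.99 to 1.02), no trend, the replicate block and 6 fits with 1 sample left out.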

Additional observations from a re-analysis of the deposited data

How the results depend on the processing

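The replicate number as a block gave 57 genes with an adjusted p under 0.05 in place of 0, and 1624 with an unadjusted p under 0.05 in place of 692 (1318 with the block and no trend, 1145 with samples 2 and 3 alone, where 33 had an adjusted p under 0.05, both added after seeing the data). None of these calls by adjusted p was a transporter: over 14 alternative fits no transporter passed, with a smallest adjusted p of 0.229. With the block *Derl1* passed (log2 difference −1.03, adjusted p = 0.00884 from limma), as it did with samples 2 and 3 alone (−0.83, adjusted p = 0.00696), but with the block and no intensity trend *Derl1* had an adjusted p of 0.229 and 0 genes passed in place of the 57. By unadjusted p the block gave 3 transporters in place of 2, with *Slc7a4* added. With 1 sample left out, 424 (without siControl 2) to 805 genes had an unadjusted p under 0.05. Among the 20 transporters, the count at an unadjusted p under 0.05 was 1 with a mean of at least 5 TPM or no filter, 0 with samples 2 and 3 alone, 5 with the block and no trend, and 0 to 1 with 1 sample left out, in place of 2. The fold limits were met by 1 with median-of-ratios scaling or a pseudocount of 0.1, in place of 0. Their median was −0.12 with samples 2 and 3 alone and −0.12 to −0.026 with 1 sample left out. The median of the mTORC1 list was 0.00066 with samples 2 and 3 alone and 0.0073 to 0.057 with 1 left out, and that of the glutathione list 0.029 with median-of-ratios scaling, −0.019 with no filter, 0.053 with samples 2 and 3 alone and −0.038 to 0.053 with 1 left out. For the amino acid response list it was 0.074 to 0.13 and for the other carriers −0.031 to 0.065 with 1 left out, and for the latter −0.082 with a mean of at least 5 TPM in place of 0.01. The sample number gave 591 genes with no filter, 252 and 0 transporters with no intensity trend, and 608 to 1594 genes with 1 left out, in place of 1092. Of 275 comparisons of a transporter with an alternative, 253 kept the direction, and 12 of the 20 genes kept it in all. The sign turned with median-of-ratios scaling in *Slc36a4* (0.0096) and *Slc38a1* (0.0028), and with samples 2 and 3 alone in *Slc36a4* (0.083), *Slc38a6* (−0.14), *Slc7a1* (−0.0012) and *Slc7a7* (−0.14). With 1 sample left out it also turned in *Slc36a1* (−0.087 to 0.064), *Slc36a4* (−0.063 to 0.086), *Slc38a1* (−0.062 to 0.086), *Slc38a6* (−0.19 to 0.21), *Slc3a2* (−0.15 to 0.20), *Slc7a1* (−0.083 to 0.089), *Slc7a5* (−0.15 to 0.24) and *Slc7a7* (−0.10 to 0.32). The cause of these changes was not tested. Without depth, the error of genes near 1 TPM cannot be told from their change.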
